A study of Arabidopsis thaliana with 16 samples.

Results

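The 8 genes described here were PSF2, PRL, ICU2, POLA3, POLD3, TOPII, ASF1B and UNG of Arabidopsis thaliana, chosen by name as genes of DNA replication and repair. They were chosen with earlier results of these data known, so their counts beside all tested probe sets are descriptions only. Each gene had 1 probe set on the Affymetrix ATH1 array, which gave 8 of the 22810 probe sets on the array, and all 8 were among the 17099 probe sets tested. Wild-type seedlings of the Columbia ecotype were grown for 5 days and then moved for 1 h to standard medium or to standard medium with 140 mM NaCl, with no other agent and no mutant or transgene named in the labels. The roots were then cut lengthwise into 4 zones. Zone 1 was the conical tip of about 150 µm, and zone 2 was the next 200 µm, to about the end of the meristem. Zone 3 was the next 200 to 300 µm, to the point where hairs start to emerge, and zone 4 was the following 1000 µm. Each of the 8 combinations of zone and medium had 2 arrays, 16 in all, and each array was made from about 15 pooled sections. The labels do not say that replicates came from separate cultures, so p-values measure only the spread between these samples, which may be technical.

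Before a cell divides it copies its DNA at forks that are opened by a helicase, primed by the polymerase alpha and primase complex and extended by other polymerases. Topoisomerases untangle the copied strands, histone chaperones bring histones to the new DNA, and repair enzymes remove damaged or wrong bases. In the Arabidopsis root, division takes place in the meristem at the tip. Many cells that leave the meristem go on copying their DNA without dividing, which is called endoreduplication, while they elongate and mature.

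A probe set's MAS 5 signal is a linear intensity with no absolute unit, so levels were compared between arrays for 1 gene and never between genes. The mean after trimming 2% at each end was between 250.02 and 250.03 in every array, and the correlation of log2 signals within a pair of replicates was between 0.979 and 0.986. No array was identical to another. The depth of a scanned array is not known, and the number of arrays limits the precision. Differences below are on the scale log2(signal + 16), which understates changes at low signal. A gene passed a test where its adjusted p from limma, over all 17099 probe sets, was below 0.05. Testing required a signal above 41.4 in 2 or more of the 16 arrays. PRL, POLA3 and ASF1B lay above that level in 16 of 16 arrays. PSF2, ICU2 and UNG exceeded it only in zones 1 and 2. POLD3 exceeded it there and in 1 array of zone 4 under NaCl, fewer than the 2 required. The filter thus kept PSF2, ICU2, UNG and POLD3 through the zones where they were high.

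All 8 genes were higher toward the tip than above it on standard medium. The mean of zones 1 and 2 exceeded the mean of zones 3 and 4 past the threshold for 8 of 8 genes, where 37.6% of all tested probe sets were higher in the same comparison. PSF2, ICU2, UNG and POLD3 entered the test only through zones 1 and 2, so their part of this count is not independent of the filter. The difference was largest for TOPII, at 3.33, and smallest for ICU2, at 0.45, and the median over the 8 genes was 1.44, against 0.04 over all tested probe sets. With both media pooled, the 8 arrays of zones 1 and 2 all lay above the 8 arrays of zones 3 and 4 for 6 genes, a separation met by 18.5% of all tested probe sets. The ranges overlapped for POLD3 and UNG. Because each array holds a mixture of cells, fewer cells of a type and less RNA per cell cannot be told apart here.

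**Figure D1:**
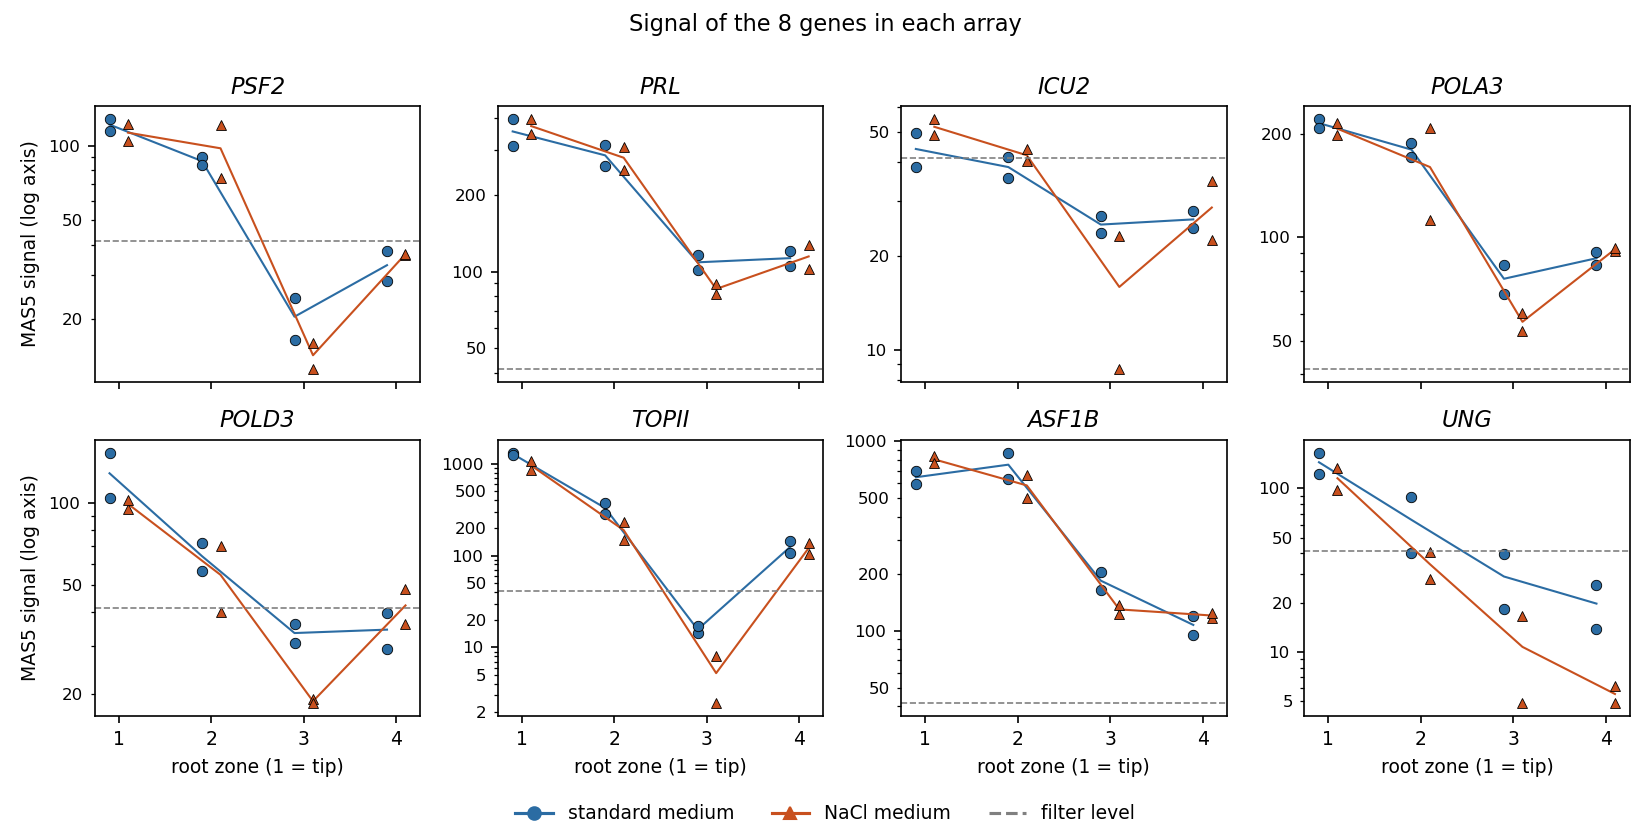
MAS 5 signal of each gene in each of the 16 arrays (log axes, each with its own range) by root zone, with circles for standard medium, triangles for NaCl medium, lines through the means of 2 arrays and a dashed line at the filter level of 41.4. Every gene is high in zone 1 and low in zone 3 or 4. TOPII falls to between 2.46 and 16.9 in zone 3 and is above 100 again in zone 4.

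PSF2 (AT3G12530) encodes a subunit of GINS, a part of the helicase at the replication fork. On standard medium its signals were 129 and 115 in zone 1, 90.0 and 83.6 in zone 2, 24.4 and 16.5 in zone 3, and 37.5 and 28.5 in zone 4. Under NaCl they were 104 and 122, 74.1 and 121, 12.5 and 16.1, and 36.4 and 36.8 in the same order. Every array of zones 1 and 2 was higher than every array of zones 3 and 4, and zone 3 was the lowest zone on both media. The fall from zone 2 to zone 3 was the main step, at -1.50 ± 0.23 (SE, adjusted p = 2.87e-05) on standard medium and -1.88 ± 0.23 (adjusted p = 2.03e-06) under NaCl. From zone 3 to zone 4 PSF2 rose by 0.80 ± 0.23 under NaCl (adjusted p = 0.0104), and on standard medium the estimate was 0.43 ± 0.23 (adjusted p = 0.144). The first of these did not pass without replicate 1 of zone 3 under NaCl (0.71, adjusted p = 0.0703).

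PRL (AT4G02060), also called PROLIFERA, encodes MCM7, a subunit of the ring-shaped core of the same helicase. Its signals on standard medium were 397 and 312 in zone 1, 259 and 313 in zone 2, 116 and 101 in zone 3, and 121 and 105 in zone 4. On NaCl medium they were 398 and 347, 251 and 308, 81.7 and 89.4, and 102 and 127. Zones 1 and 2 lay between 251 and 398 and zones 3 and 4 between 81.7 and 127, with no overlap. PRL fell by 1.27 ± 0.18 (adjusted p = 1.30e-05) from zone 2 to zone 3 on standard medium and by 1.54 ± 0.18 (adjusted p = 1.25e-06) under NaCl. The step from zone 1 to zone 2 was -0.29 on standard medium and -0.40 under NaCl and did not pass the test on either (adjusted p = 0.229 and 0.0903). Zones 3 and 4 of standard medium overlapped, with a difference of 0.05 (95% interval -0.33 to 0.43).

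ICU2 (AT5G67100) encodes the catalytic subunit of DNA polymerase alpha, which starts new strands. Its standard signals were 49.6 and 38.6 in zone 1, 41.6 and 35.5 in zone 2, 26.8 and 23.6 in zone 3, and 27.9 and 24.5 in zone 4. The NaCl signals were 48.7 and 55.2, 40.2 and 44.0, 23.2 and 8.65, and 22.5 and 34.8. These were low signals that lay above the filter level in 5 of 16 arrays, and the gradient was the shallowest of the 8 genes, with zone 3 at 57.2% of the zone 1 mean on standard medium. The test across the 4 standard zones did not pass for ICU2 (adjusted p = 0.148), while the contrast of zones 1 and 2 with zones 3 and 4 did (0.45 ± 0.18, adjusted p = 0.0332). The latter did not pass without replicate 1 of zone 1, replicate 3 of zone 2, replicate 6 of zone 3 or replicate 8 of zone 4 on standard medium (0.39 to 0.43, adjusted p = 0.0767 to 0.108), nor with an added constant of 1 (adjusted p = 0.0611). Under NaCl ICU2 fell from zone 2 to zone 3 by 0.90 ± 0.26 (adjusted p = 0.00634). This rested on the array with a signal of 8.65: without it, the step was -0.57 (adjusted p = 0.113).

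POLA3 (AT5G41880) encodes a DNA primase, which makes the short RNA primers that polymerase alpha extends. On standard medium its signals were 221 and 208, 171 and 188, 82.9 and 68.7, and 91.0 and 83.0 from zone 1 to zone 4. Under NaCl they were 215 and 198, 112 and 208, 60.4 and 53.3, and 91.5 and 93.1. The zones separated without overlap into zones 1 and 2, between 112 and 221, and zones 3 and 4, between 53.3 and 93.1. POLA3 fell from zone 2 to zone 3 by 1.09 ± 0.21 on standard medium (adjusted p = 0.000333) and by 1.22 ± 0.21 under NaCl (adjusted p = 0.000107). It rose from zone 3 to zone 4 under NaCl by 0.57 ± 0.21 (adjusted p = 0.0427), a call that was lost in most alternative settings.

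POLD3 (AT1G78650) encodes a subunit of DNA polymerase delta, which extends the lagging strand. Its standard signals were 154 and 104 in zone 1, 56.4 and 71.6 in zone 2, 36.0 and 30.8 in zone 3, and 29.1 and 39.6 in zone 4. Its NaCl signals were 95.8 and 103, 69.5 and 39.8, 19.1 and 18.4, and 36.1 and 48.3. Zone 1 was above all other zones on both media, and zones 2 and 4 overlapped under NaCl. From zone 1 to zone 2 POLD3 fell, by 0.84 ± 0.25 on standard medium (adjusted p = 0.0144) and 0.74 ± 0.25 under NaCl (adjusted p = 0.0251). The first did not pass without replicate 1 of zone 1 (-0.59, adjusted p = 0.161) or replicate 3 of zone 2 (-0.71, adjusted p = 0.106). The second did not pass without either NaCl replicate of zone 1 or without replicate 2 of zone 2 (-0.79 to -0.43, adjusted p = 0.0670 to 0.254). Quantile normalization ended both calls (adjusted p = 0.0673 and 0.132) and median centring the second (adjusted p = 0.114). From zone 2 to zone 3 POLD3 fell by 0.69 ± 0.25 on standard medium (adjusted p = 0.0265) and by 0.99 ± 0.25 under NaCl (adjusted p = 0.00251). The former was lost without replicate 4 of zone 2 or either replicate of zone 3 (adjusted p = 0.0532 to 0.163), and the latter without replicate 1 of zone 2 (adjusted p = 0.0542).

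TOPII (AT3G23890) encodes topoisomerase II, which passes one DNA duplex through another and so separates copied chromosomes. On standard medium its signals were 1327 and 1238 in zone 1, 377 and 283 in zone 2, 14.4 and 16.9 in zone 3, and 106 and 142 in zone 4. Under NaCl they were 851 and 1066, 149 and 230, 2.46 and 8.03, and 104 and 138. Within a medium, no zone overlapped another. Zone 2 stood at 25.7% and zone 3 at 1.22% of the zone 1 mean on standard medium, and zone 4 was back at 9.69%.

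The steps of TOPII were the largest of the 8 genes. It fell by 1.92 ± 0.23 from zone 1 to zone 2 (adjusted p = 5.33e-06) on standard medium. The step from zone 2 to zone 3 was -3.44 ± 0.23 (adjusted p = 1.72e-09). From zone 3 to zone 4 it rose by 2.14 ± 0.23 (adjusted p = 6.07e-07), and under NaCl by 2.69 ± 0.23 (adjusted p = 6.24e-08). Of the 8 genes, TOPII alone passed as higher in zone 4 than in zone 3 on standard medium, where 24.0% of all tested probe sets did so. Of the 4 zone 3 signals, 3 were below the added constant of 16, so the size of these steps depends on that constant.

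ASF1B (AT5G38110) encodes a chaperone that hands histones H3 and H4 to the machinery that packs new DNA. Its standard signals were 698 and 594 in zone 1, 633 and 872 in zone 2, 204 and 163 in zone 3, and 95.1 and 119 in zone 4. Its NaCl signals were 840 and 766, 503 and 667, 122 and 137, and 116 and 124. ASF1B was the only one of the 8 genes whose mean on standard medium was highest in zone 2 (116.5% of zone 1), although the arrays of zones 1 and 2 overlapped and the step of 0.20 ± 0.19 did not pass (adjusted p = 0.441). It fell from zone 2 to zone 3 by 1.93 ± 0.19 on standard medium (adjusted p = 1.62e-07) and by 2.03 ± 0.19 under NaCl (adjusted p = 7.05e-08). It was also the only one of the 8 to pass as lower in zone 4 than in zone 3 on standard medium (-0.70 ± 0.19, adjusted p = 0.00568), where 21.0% of all tested probe sets did so. That call was lost without replicate 5 of zone 3 (-0.55, adjusted p = 0.0740) or replicate 7 of zone 4 (-0.55, adjusted p = 0.0641).

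UNG (AT3G18630) encodes a uracil DNA glycosylase, which cuts uracil out of DNA as the first step of base excision repair. On standard medium its signals were 166 and 123, 88.1 and 40.3, 39.4 and 18.4, and 13.9 and 25.6 from zone 1 to zone 4. Under NaCl they were 97.4 and 133, 27.7 and 41.0, 16.6 and 4.84, and 4.87 and 6.17. UNG was highest in zone 1 and its mean was lowest in zone 4 on both media, and its standard errors were the largest of the 8 genes. The step from zone 3 to zone 4 was -0.31 ± 0.33 on standard medium (adjusted p = 0.493), where the arrays overlapped, and -0.28 ± 0.33 under NaCl (adjusted p = 0.569). The fall from zone 1 to zone 2 gave -1.06 ± 0.33 on standard medium (adjusted p = 0.0215) and -1.38 ± 0.33 under NaCl (adjusted p = 0.00332). The standard value was -0.86 without replicate 1 of zone 1 (adjusted p = 0.146) and -0.61 without replicate 4 of zone 2 (adjusted p = 0.276), and it did not pass with an added constant of 1 (adjusted p = 0.107) or quantile normalization (adjusted p = 0.0551). The fall from zone 2 to zone 3 on standard medium, 0.81 ± 0.33, was at the threshold (adjusted p = 0.0498). It was -0.37 without replicate 3 of zone 2 (adjusted p = 0.461) and -0.47 without replicate 6 of zone 3 (adjusted p = 0.359), and most other alternatives ended the call too. Under NaCl the step was -0.94 ± 0.33 (adjusted p = 0.0238), and it was lost without replicate 2 of zone 2 (adjusted p = 0.152), without replicate 2 of zone 3 (adjusted p = 0.216) and with an added constant of 64 (adjusted p = 0.0633).

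The test across the 4 standard zones passed for 7 genes (81.5% of all tested probe sets), and across the 4 NaCl zones for 8 (82.2%). From zone 1 to zone 2, 3 genes fell on standard medium, POLD3, TOPII and UNG, where 19.0% of all tested probe sets fell. The estimate was below 0 for 7 of 8 genes, against 59.3% of all tested probe sets, and whether this step differed between genes was not tested. These 3 also fell under NaCl, where 23.7% did. From zone 2 to zone 3, 7 genes fell on standard medium, all but ICU2, and 8 fell under NaCl, against 27.8% and 30.0% of all tested probe sets. From zone 3 to zone 4 under NaCl, 4 genes rose, PSF2, POLA3, POLD3 and TOPII, against 20.2% of all tested probe sets. The POLD3 rise of 0.74 ± 0.25 (adjusted p = 0.0266) was lost without either NaCl replicate of zone 3 (adjusted p = 0.0844 and 0.0944) and without replicate 2 of zone 4 (adjusted p = 0.175). It was also lost with an added constant of 64 (adjusted p = 0.0644) and median centring (adjusted p = 0.0546). Under NaCl zones 1 and 2 exceeded zones 3 and 4 for 8 of 8 genes (40.7% of all tested probe sets), by 0.76 for ICU2 to 3.05 for TOPII. The limit set by the filter for PSF2, ICU2, UNG and POLD3 holds here too.

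**Figure D2:**
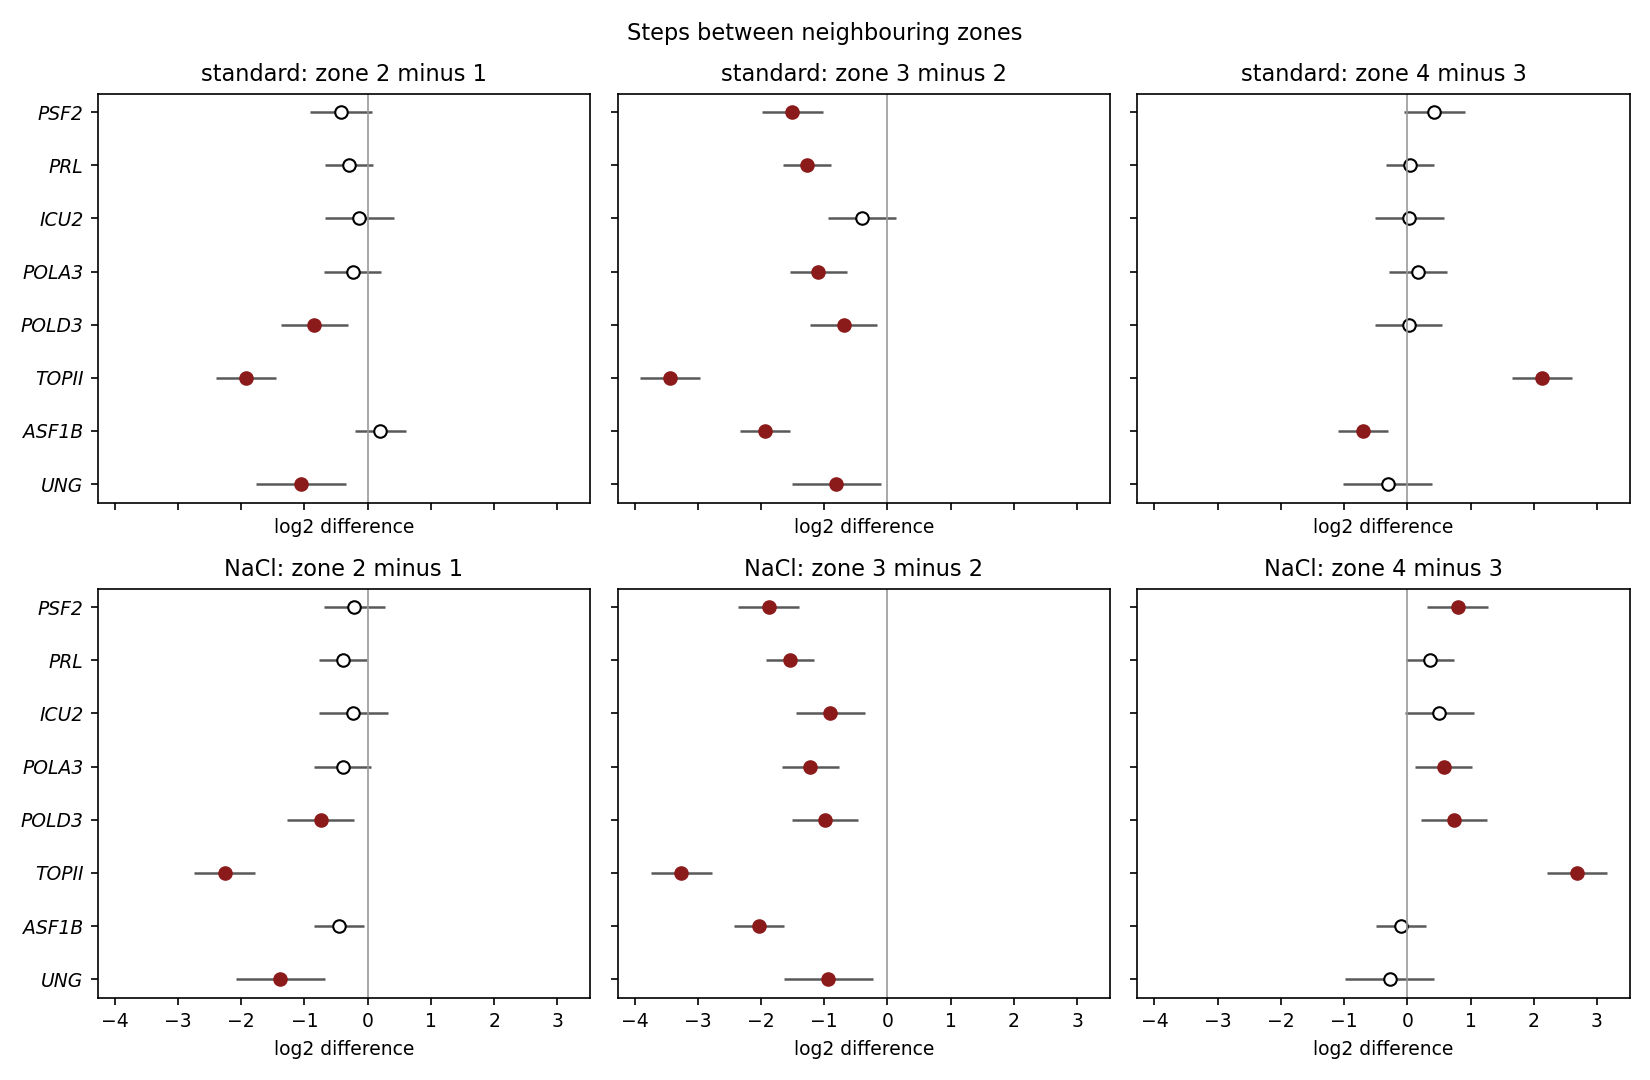
Steps between neighbouring zones for the 8 genes, as log2 differences with 95% intervals, on standard medium (upper row) and under NaCl (lower row), with filled circles where the adjusted p was below 0.05. The fall from zone 2 to zone 3 is shared by 7 genes on standard medium and 8 under NaCl, while TOPII turns upward by 2.14 and 2.69 from zone 3 to zone 4.

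The salt comparison asked whether 1 h on NaCl changed these genes within a zone. In the tip itself no change passed the test: 0 of 8 genes passed in zone 1, where limma called 9.64% of all tested probe sets, and 0 of 8 had an unadjusted p below 0.05. The estimates ran from -0.42 for TOPII to 0.31 for ASF1B, and their 95% intervals reached from -0.997 (UNG) to 0.73 (ICU2). Both NaCl arrays lay below both standard arrays for POLD3 and TOPII (22.5% of all tested probe sets) and above them for ASF1B (31.4%).

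In zone 2 the only call was TOPII. Its NaCl signals of 149 and 230 lay below the standard signals of 377 and 283, and the fall was 0.77 ± 0.23 (adjusted p = 0.0360). That made 1 of 8 genes called, against 11.4% of all tested probe sets in either direction and 5.20% lower. TOPII was also the 1 gene whose NaCl arrays both lay below the standard arrays (26.1% of all tested probe sets), and for 0 of 8 they both lay above (27.9%). The call was lost without replicate 3 of standard medium (-0.57, adjusted p = 0.281) and without replicate 1 of NaCl medium (-0.48, adjusted p = 0.308). An added constant of 1, no filter, no variance trend and a fit of zone 2 alone also ended it (adjusted p = 0.0579 to 0.185). That NaCl array, replicate 1, was lower than its partner for 7 of the 8 genes, all but POLD3.

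In zone 3 all 8 genes had lower signals under NaCl. Both NaCl arrays lay below both standard arrays for 8 of 8 genes, a pattern met by 32.3% of all tested probe sets, and above them for 0 of 8 (30.4%). The estimates ran from -0.26 (PSF2) to -0.74 (UNG), with a median of -0.43, against -0.01 over all tested probe sets. None reached the threshold: limma called 0 of 8, where it called 25.8% of all tested probe sets, and 3 genes had an unadjusted p below 0.05. These were TOPII (-0.59 ± 0.23, adjusted p = 0.0667), ASF1B (-0.45 ± 0.19, adjusted p = 0.0905) and UNG (-0.74 ± 0.33, adjusted p = 0.117). The upper ends of the other 95% intervals lay between 0.02 (POLD3) and 0.22 (PSF2). The 8 genes were read from the same 4 arrays, so their shared direction is not 8 independent observations.

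The separation in zone 3 was narrow for some genes. The higher NaCl array and the lower standard array were 16.1 and 16.5 for PSF2 and 23.2 and 23.6 for ICU2. It was wider for POLD3, at 19.1 and 30.8, and for TOPII, at 8.03 and 14.4. TOPII passed in zone 3 with an added constant of 1 (-1.57, adjusted p = 0.00582) and after quantile normalization (-0.64, adjusted p = 0.0425). It also passed when either NaCl replicate of zone 2 was left out of the common fit (adjusted p = 0.0485 and 0.0490).

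In zone 4 the 2 media were close for most of the genes. The estimates for 7 genes lay between -0.03 and 0.21, and UNG stood at -0.71 ± 0.33 (adjusted p = 0.207, unadjusted p = 0.0483). The call count was 0 of 8, where 12.1% of all tested probe sets were called. UNG was the 1 gene with both NaCl arrays, 4.87 and 6.17, below both standard arrays, 13.9 and 25.6 (27.1% of all tested probe sets). POLA3 was the 1 gene with both above (22.9%), at 91.5 and 93.1 against 91.0 and 83.0. The 4 UNG signals under NaCl in zones 3 and 4 included 3 below 7, where the scale compresses differences.

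**Figure D3:**
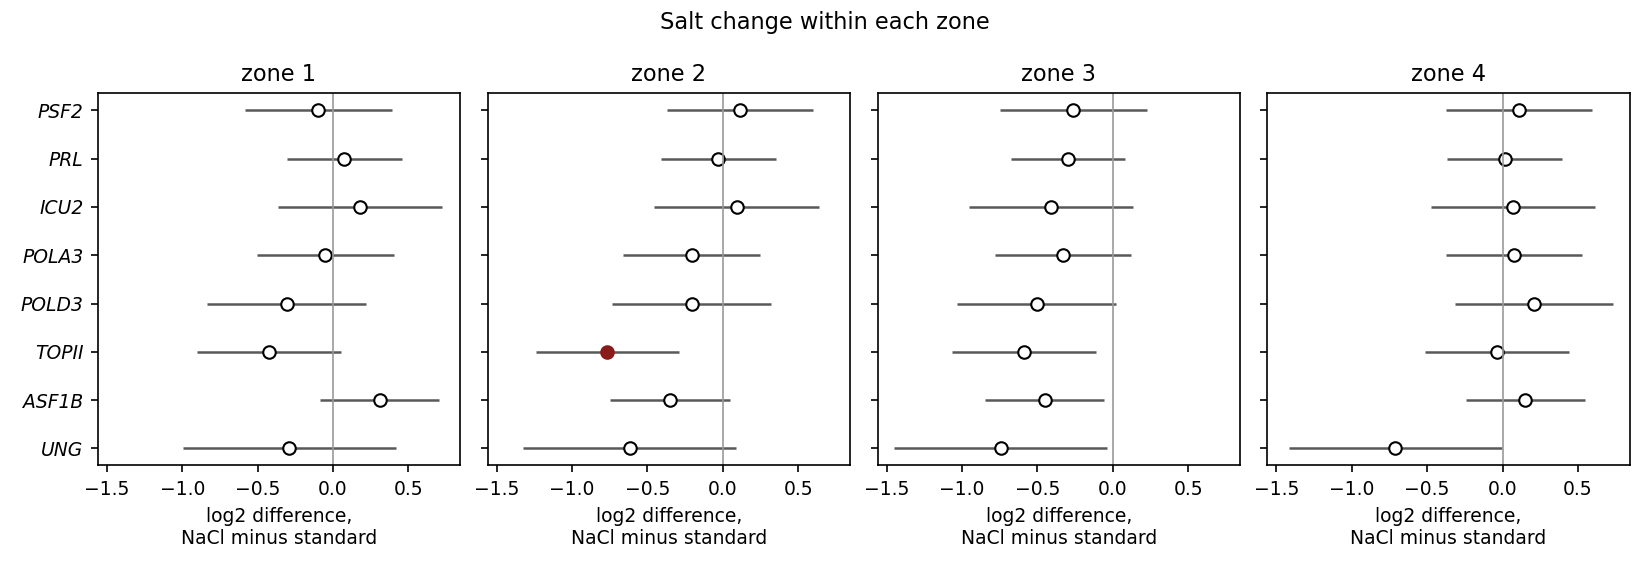
Salt change of the 8 genes within each zone, as the log2 difference of NaCl minus standard with its 95% interval, with filled circles where the adjusted p was below 0.05. In zone 3 all 8 estimates are below 0, between -0.74 and -0.26, and TOPII in zone 2 is the only filled circle.

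Averaged over the 4 zones, 2 genes fell under NaCl, TOPII and UNG, where 30.9% of all tested probe sets changed and 15.3% fell. TOPII fell by 0.45 ± 0.11 (adjusted p = 0.00547) and UNG by 0.59 ± 0.17 (adjusted p = 0.0124). UNG was lower under NaCl in the estimate of each zone, at -0.29, -0.62, -0.74 and -0.71 from zone 1 to zone 4, and TOPII at -0.42, -0.77, -0.59 and -0.03. Both calls held in each of the 23 alternative settings that could be fitted, but the size moved, from -0.71 to -0.32 for TOPII and from -1.05 to -0.29 for UNG. The other 6 genes had mean changes between -0.20 (POLD3) and -0.02 (ICU2), with 95% intervals from -0.47 to 0.26.

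Whether the salt change differed between zones was tested directly. The F test over the 4 zones passed for 0 of 8 genes, where 18.3% of all tested probe sets passed, and its lowest value was for ASF1B (adjusted p = 0.103, unadjusted p = 0.0269). The ASF1B estimates were 0.31 in zone 1, -0.35 in zone 2, -0.45 in zone 3 and 0.15 in zone 4. Between neighbouring zones the salt change differed for 0 of 8 genes in each step, where 1.17% of all tested probe sets were called for zone 2 against zone 1, 7.65% for zone 3 against zone 2 and 11.3% for zone 4 against zone 3. It differed for 0 of 8 between zones 1 and 2 and zones 3 and 4 (11.0% of all tested probe sets). By unadjusted p below 0.05, ASF1B was the 1 gene in the first step and in the last, and none was below it in the middle step or between zones 1 and 2 and zones 3 and 4. From zone 3 to zone 4 the salt change moved upward in all 8 estimates, by 0.03 (UNG) to 0.71 (POLD3). The median was 0.44, against -0.01 over all tested probe sets, of which 50.9% had an estimate below 0. The zone 3 values enter this step, so it is not separate evidence of the lower signals there.

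Salted zone 3 was also set beside zone 4 of standard medium, the next zone up. The PSF2 difference, salted zone 3 minus standard zone 4, was -0.69 ± 0.23 (adjusted p = 0.0255), and the TOPII difference was -2.72 ± 0.23 (adjusted p = 6.65e-08), which made 2 of 8 genes lower, against 19.8% of all tested probe sets. The PSF2 value did not pass without replicate 7 of zone 4 (-0.56, adjusted p = 0.154) or without either replicate of salted zone 3 (-0.61, adjusted p = 0.129, and -0.77, adjusted p = 0.0521). ASF1B stood at 122 and 137 in salted zone 3 and at 95.1 and 119 in standard zone 4, with an estimate of 0.24 (95% interval -0.15 to 0.64).

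Markers of other cells moved between the same groups. Of the 7 root hair markers, the probe table named 4: EXPA7, EXPA18, XTH26 and SCN1. Their summed signal on standard medium was 504 to 610 in zone 1, 984 to 1061 in zone 2, 5136 to 5820 in zone 3 and 8123 to 8237 in zone 4. Under NaCl it was 475 to 592, 1149 to 1271, 9641 to 10146 and 2935 to 3515. The sum was thus higher in salted zone 3, where the 8 genes were lower, and lower in salted zone 4. Such a sum is weighted toward the probe sets with the highest signal. On standard medium SCN1 made up 490 of a mean sum of 557 in zone 1 and 972 of 1023 in zone 2. In zone 3 limma called 2 of the 4 markers higher, against 25.8% of all tested probe sets in either direction. These were EXPA7 (1.18 ± 0.26, adjusted p = 0.00268) and EXPA18 (1.01 ± 0.22, adjusted p = 0.00235). SCN1 did not pass (0.26 ± 0.14, adjusted p = 0.205), and XTH26 was between 2.16 and 3.68 in the 4 arrays. On standard medium the SCN1 mean was higher in zone 3 (2018) than in zone 4 (1388), unlike the sum. In zone 4 all 4 markers were called lower under NaCl, where 12.1% of all tested probe sets were called in either direction. Their part in the changes of the 8 genes was not tested.

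Of the 6 markers of dividing cells, the probe table named 1, AUR1, which encodes a mitotic Aurora kinase. Its mean signal on standard medium was 777, 273, 100.1 and 188 from zone 1 to zone 4, and under NaCl 451, 178, 102 and 224. AUR1 thus shared with TOPII the low point in zone 3 and the higher level in zone 4. Under NaCl it fell by 0.76 ± 0.17 in zone 1 (adjusted p = 0.00790) and by 0.60 ± 0.17 in zone 2 (adjusted p = 0.0297), and its estimate in zone 3 was 0.02 ± 0.17. The F test of its salt change between zones passed (adjusted p = 0.0149). Its part in the TOPII values was not tested. The probe table named none of the listed markers of root cap, stem cell niche, xylem and endodermis, or leaf, and 7151 of the tested probe sets carry no name in it, so the zone labels were checked only through the hair markers, whose sum on standard medium was higher in zones 3 and 4, and AUR1, which was highest in zone 1.

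The 8 genes followed each other closely along the arrays. Over the 16 arrays the correlation of log2 values ran from 0.760 (TOPII with ASF1B) to 0.976 (PSF2 with POLA3) over the 28 pairs, with a median of 0.865. Set against the mean profile of the other 7, PRL was closest (r = 0.975) and UNG farthest (r = 0.867). These values describe arrays that share 4 zones.

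Among 9525 other genes, the 8 whose log2 values correlated best with the mean profile had r from 0.986 to 0.995 over the 16 arrays. They were AT3G01160, AT4G33400, AT2G28450, AT2G18520, AT5G65900, AT4G28200, AT5G06110 and AT3G58660, which the tables used here pair with no symbol. The mean signal of AT3G01160 was 971, 613, 120 and 166 on standard medium and 1102, 542, 80.4 and 165 under NaCl from zone 1 to zone 4. It thus had the same order of zone means as PSF2, PRL, ICU2, POLA3, POLD3 and TOPII on both media, with zone 3 lowest. In zone 3 limma called 6 of these 8 genes lower under NaCl, by 0.51 (AT5G06110) to 0.86 (AT5G65900). It called 25.8% of all tested probe sets there, in either direction. For AT3G01160 the estimate was -0.49 (adjusted p = 0.0621), and for AT2G18520 it was -0.43 (adjusted p = 0.0978). Since likeness was measured on the same arrays, their lower zone 3 signals are not separate evidence about the 8 genes.

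**Figure D4:**
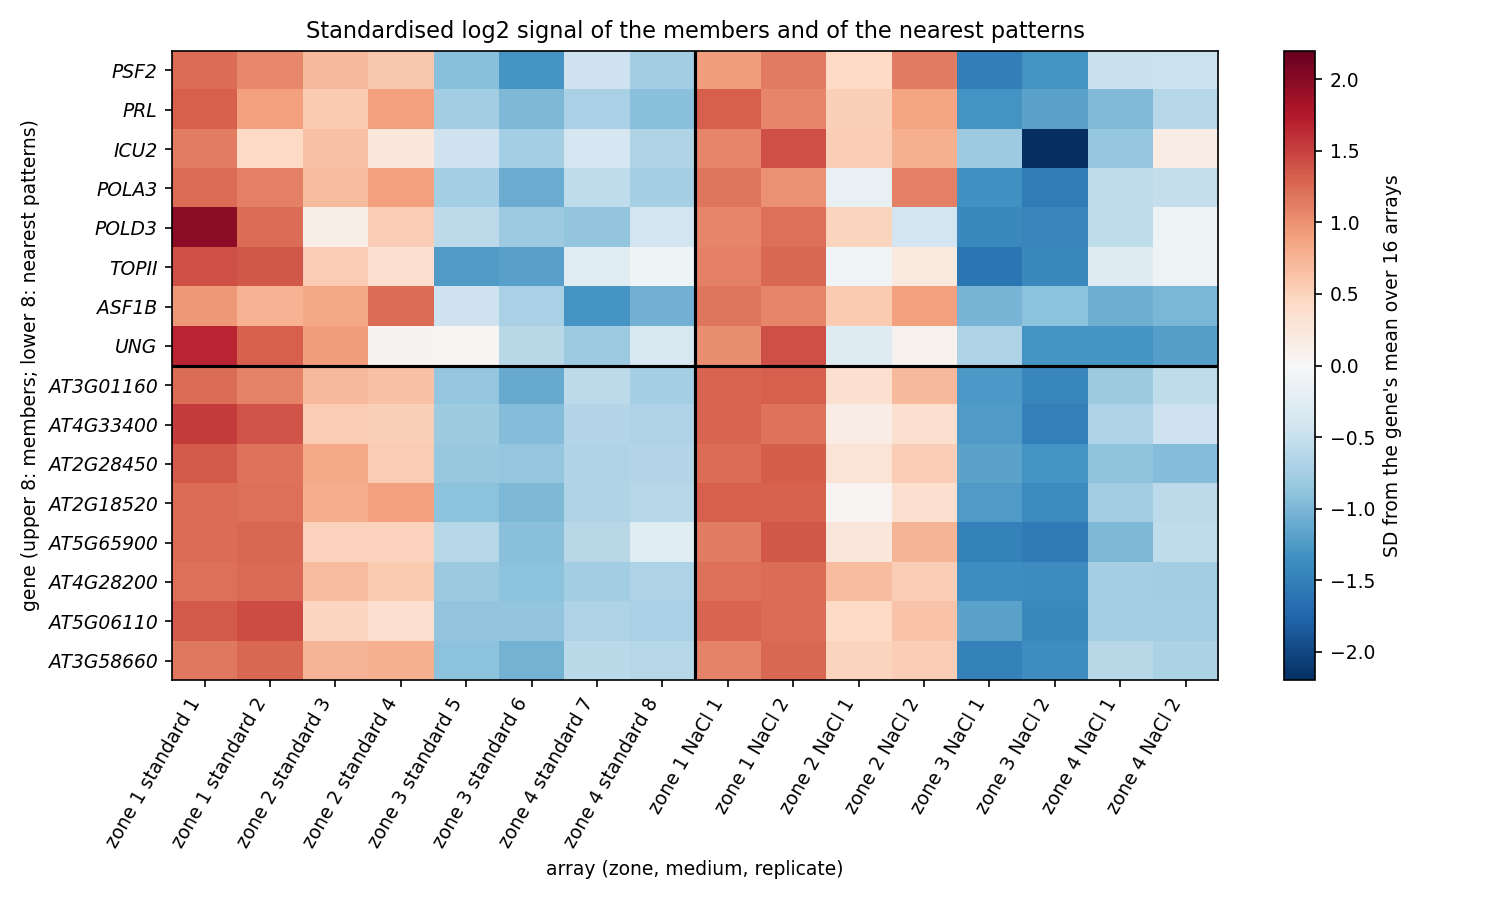
Log2 signal of the 8 genes (upper rows) and of the 8 nearest patterns (lower rows) in the 16 arrays, each as SD from the gene's own mean over the arrays, with standard medium left of the vertical line and NaCl right of it. Zones 1 and 2 are mostly red and zones 3 and 4 mostly blue, and the nearest patterns were chosen for this likeness.

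Other genes of the same processes were few among the named probe sets. Of 92 genes written in 5 lists (origin and helicase, fork polymerases with clamp and nucleotide supply, replication-coupled chromatin, repair and damage response, and S phase transcription control), 5 were tested. These 5 were AT5G26680, listed as SAV6, which encodes the flap endonuclease FEN1; SGA2, at the locus listed as ASF1A, the paralogue of ASF1B; ATLIG4, a DNA ligase; POLH, a translesion polymerase; and DME, a DNA glycosylase that removes methylated cytosine. The first and last of the lists had 0 genes tested, although 21 and 11 were written. In each of the 4 zones and in the mean, 0 of the 5 passed for salt, where 9.64%, 11.4%, 25.8%, 12.1% and 30.9% of all tested probe sets did. On standard medium 3 of the 5 were higher in zones 1 and 2 than in zones 3 and 4, against 37.6% of all tested probe sets: AT5G26680 by 0.84 ± 0.15 (adjusted p = 6.66e-05), POLH by 1.03 ± 0.27 (adjusted p = 0.00268) and DME by 0.36 ± 0.13 (adjusted p = 0.0190). DME had 2 tested probe sets, and the other gave 0.07 ± 0.17 (adjusted p = 0.728). POLH exceeded the filter level only in zone 1, so its part of this count of 3 is not independent of the filter.

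A further 12 genes of repair and recombination named in the probe table gave 11 tested genes (RECQSIM, RECQI1, RECQ4A, RECQ4B, TOP3A, RAD4, RAD9, RAD51B, EME1A, CHR24 and TERT; RAD5 was below the filter level). They were higher in zones 1 and 2 than in zones 3 and 4 for 6 of 11 genes on standard medium and 8 of 11 under NaCl, against 37.6% and 40.7% of all tested probe sets. TERT, RECQSIM, TOP3A, CHR24, RECQI1 and EME1A exceeded the filter level only in arrays of zone 1 or 2. Their part of these counts is therefore not independent of the filter. In zone 3 the salt test passed for 2 of 11, against 25.8%, in opposite directions. TOP3A, which encodes topoisomerase 3 alpha, fell by 1.22 ± 0.24 (adjusted p = 0.00108), from signals of 31.6 to 34.5 to signals of 2.24 to 8.28. RAD4, named for a factor that recognises damage in nucleotide excision repair, rose by 0.72 ± 0.16 (adjusted p = 0.00339), from 125 to 138 to 215 to 241. Averaged over the zones, TOP3A fell by 0.42 ± 0.12 (adjusted p = 0.0134) and RAD4 rose by 0.47 ± 0.08 (adjusted p = 0.000322).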

How the data were processed

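Per the labels, each replicate pooled about 15 sections, whose RNA was amplified in 2 cycles, labelled with biotin and hybridised to ATH1 arrays. The deposited values are MAS 5 signal intensities on a linear scale, per the submitters' processing notes, and the equal trimmed means show that the authors scaled the arrays alike. Detection calls, background settings and scan batches were not used here. The 64 control probe sets were left out. Signals were taken as log2(signal + 16) with no further normalization. A single linear model of the 8 group means used limma 3.58.1 (lmFit, eBayes with trend) under R 4.3.3, with 8 residual and 8.61 prior degrees of freedom. Tests were two-sided, with Benjamini-Hochberg adjustment over 17099 probe sets. For a listed gene with several probe sets, the one of highest mean was used. Named genes were the 8 genes themselves, the 8 nearest patterns, and list genes past the threshold for salt, up to 4 per list, contrast and direction; the 5 tested list genes, the other repair genes, AUR1 and the hair markers are named beyond that rule. The genes and lists were chosen with earlier results of these data known. The list of 12 repair genes was chosen after the probe table was read. Replicate numbers 1 and 2 recur in 5 groups, but same-numbered arrays did not deviate together (r from -0.02 to 0.06 over 10 pairs of groups), so the groups were not paired. The promoter motif search was not analysed here. The procedure was tested on simulated data. Alternatives changed the added constant to 1 or 64, centred arrays on their medians or quantile-normalized them, dropped the filter or raised it to the 60th percentile, dropped the variance trend, left out each array, fitted 1 zone or 1 medium alone, and added a replicate block.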

Additional observations from a re-analysis of the deposited data

How the results depend on the processing

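No estimate that passed a test changed direction in any alternative. The 8 genes with lower zone 3 signals under NaCl kept that separation after quantile normalization and median centring. The added constant and the filter cannot change it for a tested gene. Raising the filter to the 60th percentile left 6 genes tested, without ICU2 and POLD3. In zone 2 under salt the count of genes called was 0 with an added constant of 1 (TOPII adjusted p = 0.185), with no filter (0.0620), with eBayes without the trend (0.0579) and with zone 2's own 4 arrays fitted alone (0.0971), and 0 to 1 leaving out each array. In zone 3 it was 1, TOPII, with an added constant of 1 and with quantile normalization, and 0 to 1 leaving out each array. From zone 1 to zone 2 on standard medium it was 1 with quantile normalization and 1 to 3 leaving out each array. From zone 3 to zone 4 it was 1 to 2 on standard medium leaving out each array; under NaCl it was 2 with an added constant of 64 and with median centring, and 2 to 4 leaving out each array. For salted zone 3 against standard zone 4 it was 1 with an added constant of 64 and with median centring, and 1 to 3 leaving out each array. The cause of these moves was not tested. TOPII averaged over zones ranged from -0.71 to -0.32 and UNG from -1.05 to -0.29. With a replicate block in the 10 arrays that share numbers, 0 genes were called for salt in zone 1, as without it, while the count over all probe sets went from 1648 to 1391; POLA3 from zone 3 to zone 4 under NaCl did not pass (adjusted p = 0.0734), and that count was 3. Using every probe set of a gene was not run, because each of the 8 had 1. Low signals of ICU2, TOPII, PSF2, POLD3 and UNG limit what their zone 3 and 4 values can show.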

Other observations

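In some pairs of replicate arrays, most or all of the 8 genes differed in 1 direction, and in others they were split. In zone 1 on standard medium, replicate 2 was lower than replicate 1 for 8 of 8 genes, with a median difference of -0.25 on the log2 scale, while it was higher for 50.6% of all tested probe sets. In zone 4 under NaCl, replicate 2 was higher than replicate 1 for 8 of 8 genes, by a median of 0.18, against 54.1% of all tested probe sets. In zone 2 under NaCl it was higher for 7 of 8, by a median of 0.39, against 52.3%. Zone 3 was where all 8 genes had lower signals under NaCl. There, replicate 6 of standard medium was lower than replicate 5 for 7 of 8 genes, with a median difference of -0.20. It was higher for 49.6% of all tested probe sets. The 2 NaCl arrays of zone 3 were split 4 to 4. The split was also 4 to 4 in zones 2 and 4 on standard medium, and 5 to 3 in zone 1 under NaCl.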
